A study of Mus musculus with 8 samples.

Results

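The mitotic entry and spindle genes described here are 10 genes named by symbol: Foxm1, Mybl2, Mki67, Top2a, Aurka, Tpx2, Kif11, Hmmr, Cdc20 and Ube2c. All 10 were found by Ensembl gene identifier among the 48440 genes of the deposited table, and all 10 passed the minimum level for testing. Sequenced RNA came from the jejunal epithelium of 8 female C57BL/6J mice with the Sox9-EGFP transgene, whose green fluorescence reports Sox9, a transcription factor of intestinal crypts. The sorted fraction was the one with low reporter signal, and dying cells, endothelium and leukocytes had been gated out by Annexin-V, Sytox-blue, CD31 and CD45. The animals formed 4 pairs of littermates, A to D, raised germ-free. In each pair, 1 animal drawn at random at 8 to 10 weeks of age was conventionalized, that is, moved to a different animal house and gavaged with a slurry of feces from conventional Sox9-EGFP mice, and studied 2 weeks later. Its germ-free littermate stayed behind. The study asks what the microbiota does to intestinal stem cells, and here microbes and the change of housing cannot be told apart. A library is named below by its group and pair, for example germ-free C.

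Cells that divide build a spindle of microtubules, compact their chromosomes, and then destroy a set of proteins to leave mitosis. Many genes of these steps are transcribed late in the cycle, in G2 and mitosis, through the MuvB complex, which joins with the transcription factors B-Myb and FoxM1. In the small intestine, dividing cells sit in the crypt, both at the base among the stem cells and above it among the transit-amplifying progenitors. A level in bulk RNA reads both how many cells are in that part of the cycle and how much transcript each holds, and fewer cells of a type and less RNA per cell cannot be told apart.

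All 10 genes were higher in conventionalized animals in each of the 4 littermate pairs, with log2 fold changes from 0.80 for Mybl2 to 1.82 for Aurka (median 1.49, against 0.33 over the 10054 genes tested). Of the tested genes, 28.5% were higher in all 4 pairs. In the test, limma with an adjusted p under 0.05, 4 of the 10 rose (Mki67, Cdc20, Foxm1 and Tpx2) and 0 fell. Of all tested genes, 1.15% rose, 3.75% fell and 4.9% were called in either direction (116 rose and 377 fell, or 263 and 408 with upper-quartile scaling). With the littermate pair as a block 9 of the 10 rose, all but Mybl2, where 8.21% of tested genes rose. For 9 of the 10, every conventionalized library was above every germ-free library, which held for 9.03% of tested genes; Tpx2 was the exception. The summed level of the 10 genes was 1057, 1203, 1035 and 1352 CPM in conventionalized A to D, against 401, 692, 184 and 566 CPM in germ-free A to D. CPM are the deposited values scaled to a common library total with TMM factors, which are meant to even out differences in composition. After this scaling, 70.4% of tested genes still had a positive log2 fold change. With library size only, the median over all tested genes was 0.09 in place of 0.33. The 10 genes then ran from 0.57 to 1.59, so the size of each fold change depends on the scaling.

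**Figure D1:**
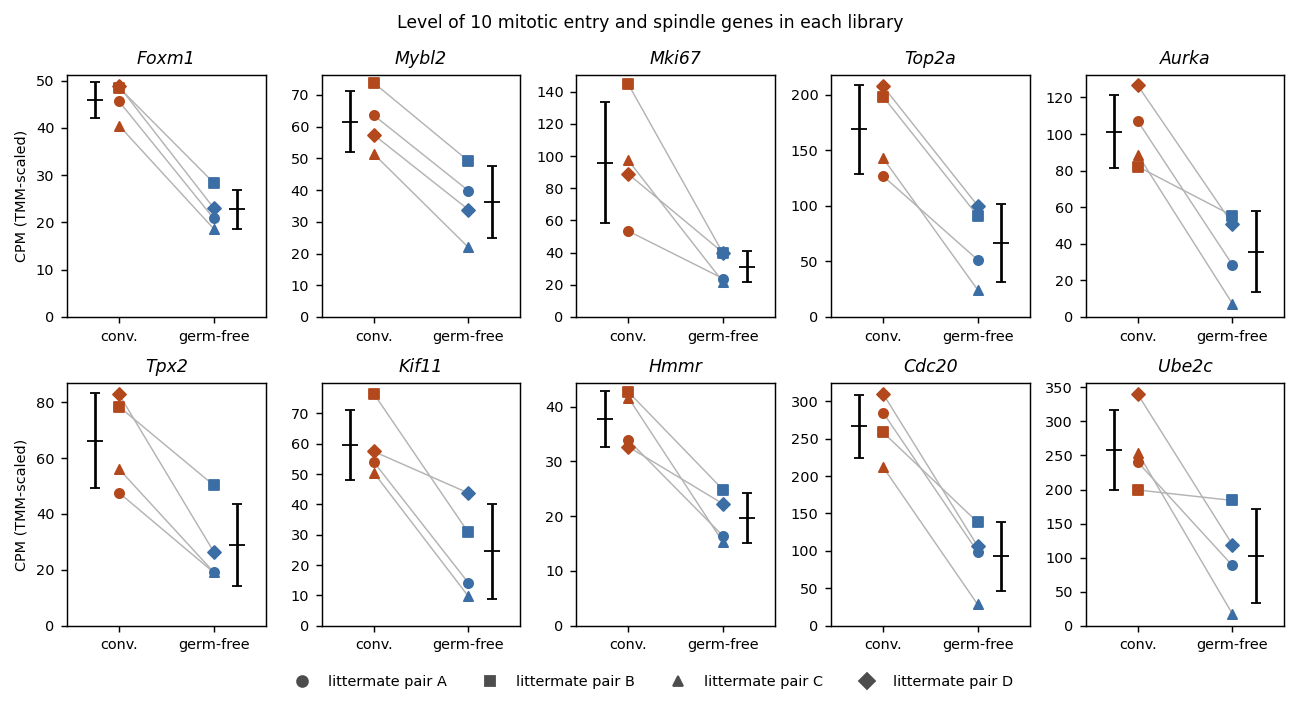
Level of each of the 10 genes in CPM in conventionalized (left) and germ-free (right) libraries; a marker shape is a littermate pair, a line joins littermates, and the black bars are mean ± SD (n = 4 per group). Every line falls toward the germ-free side, and germ-free C is the lowest for 9 of the 10 genes.

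Libraries had 6209040 to 19139700 reads on an approximate scale, and germ-free C was the shallowest. The median correlation of a library with its own group was 0.918 to 0.943 in conventionalized libraries and 0.871 to 0.887 in germ-free A, B and D. Germ-free C was the least like its group, at 0.792. That library was also the lowest for 9 of the 10 genes, Tpx2 being lowest in germ-free A. In germ-free C, 64.1 approximate reads for Aurka was the smallest value of any of the 10 genes. Sox9 itself was at 252, 387, 356 and 519 CPM in conventionalized A to D and at 336, 269, 137 and 241 CPM in germ-free A to D (a log2 fold change of 0.65 with SE 0.36, limma adjusted p = 0.24). The sums of the 8 stem cell markers were 4984 to 10078 CPM in conventionalized and 883 to 5318 CPM in germ-free animals, of which the crypt-base gene Olfm4 made up 65.5%, and 1 of the 8 rose (Lgr5), with 6 higher at an unadjusted limma p under 0.05, as were 19.8% of all tested genes. The sums of the 10 enteroendocrine markers were 9161 to 23787 CPM in conventionalized and 37636 to 90021 CPM in germ-free animals, and 6 of the 10 fell. Paneth cell markers summed to 6345 to 9508 CPM in conventionalized and 2594 to 15993 CPM in germ-free animals. Of these 7, limma called 1 higher and voom called 0. Goblet cell markers were at 1570.0 to 50859 CPM in conventionalized and 4078 to 8181 CPM in germ-free animals in sum, the highest being conventionalized A, and limma and voom each called 0 of 7, with 0 of 7 at an unadjusted limma p under 0.05. Tuft cell markers gave 50.3 to 412 CPM in conventionalized and 204 to 421 CPM in germ-free animals in sum, with 0 of 4 tested called by limma or voom and 0 at an unadjusted p under 0.05. Enterocyte markers gave 689 to 3063 CPM in conventionalized and 1758 to 4896 CPM in germ-free animals in sum, and 2 of 7 tested fell. Leukocyte markers, none of them high enough to test, gave 7.93 to 26.1 CPM in conventionalized and 17.1 to 25.6 CPM in germ-free animals in sum. Endothelial and fibroblast markers gave 3.6 to 25.3 CPM in conventionalized and 23.4 to 51.5 CPM in germ-free animals in sum, and Pecam1, the 1 tested, fell. No marker was at 0 in every library. By the same limma test, 1.15% of all tested genes rose and 3.75% fell. The part of these shifts in the results below was not tested.

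The promoters are shown because late cell-cycle genes are known to share a pair of promoter elements. These are the CCAAT box, bound by NF-Y, and the cell-cycle genes homology region (CHR), bound by the MuvB subunit Lin54 and searched as TTTGAA or TTCGAA. Both strands were searched from 250 bases before to 50 bases after the RefSeq start (GRCm38.p6), and 8 of the 10 genes matched an entry, with 1 promoter each. At least 1 CHR match lay in 7 of the 8 promoters, against 19.2% of 32851 mouse promoters of the same length. At least 2 CCAAT matches together with a CHR match lay in 6 of the 8, against 2.31% of all promoters. The Kif11 promoter held 1 match of each kind, and the Mybl2 promoter held neither. The promoters of 5 members are printed 5′ to 3′ on the gene's strand, with matches on either strand in capitals; a CCAAT box on the other strand reads ATTGG and a CHR on the other strand TTCAAA.
Mki67 promoter, chr7:135716330-135716629, minus strand: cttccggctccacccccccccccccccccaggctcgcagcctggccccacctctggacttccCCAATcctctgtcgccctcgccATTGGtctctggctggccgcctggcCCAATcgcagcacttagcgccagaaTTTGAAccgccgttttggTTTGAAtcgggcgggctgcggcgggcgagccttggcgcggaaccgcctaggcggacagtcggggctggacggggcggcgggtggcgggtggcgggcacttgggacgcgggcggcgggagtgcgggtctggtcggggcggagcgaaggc
Top2a promoter, chr11:99024140-99024439, minus strand: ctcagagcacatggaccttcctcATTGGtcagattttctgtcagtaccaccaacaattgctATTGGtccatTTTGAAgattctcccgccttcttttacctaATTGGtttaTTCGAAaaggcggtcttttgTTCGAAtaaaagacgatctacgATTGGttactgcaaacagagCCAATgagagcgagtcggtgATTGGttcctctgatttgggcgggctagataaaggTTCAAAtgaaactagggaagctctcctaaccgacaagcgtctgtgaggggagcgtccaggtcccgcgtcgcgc
Aurka promoter, chr2:172370521-172370820, minus strand: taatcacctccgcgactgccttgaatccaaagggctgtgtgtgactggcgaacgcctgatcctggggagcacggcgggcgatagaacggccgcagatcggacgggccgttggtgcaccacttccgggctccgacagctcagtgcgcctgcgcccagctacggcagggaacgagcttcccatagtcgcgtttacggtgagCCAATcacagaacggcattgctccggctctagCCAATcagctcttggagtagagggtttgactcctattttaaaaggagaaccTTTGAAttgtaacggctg
Cdc20 promoter, chr4:118437294-118437593, minus strand: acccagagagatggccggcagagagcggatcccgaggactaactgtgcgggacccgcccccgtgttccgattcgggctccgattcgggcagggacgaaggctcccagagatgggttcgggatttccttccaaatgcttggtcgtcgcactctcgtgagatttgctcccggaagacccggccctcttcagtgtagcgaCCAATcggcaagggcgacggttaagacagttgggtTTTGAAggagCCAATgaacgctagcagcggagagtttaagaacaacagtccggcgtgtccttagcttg
Ube2c promoter, chr2:164769679-164769978, plus strand: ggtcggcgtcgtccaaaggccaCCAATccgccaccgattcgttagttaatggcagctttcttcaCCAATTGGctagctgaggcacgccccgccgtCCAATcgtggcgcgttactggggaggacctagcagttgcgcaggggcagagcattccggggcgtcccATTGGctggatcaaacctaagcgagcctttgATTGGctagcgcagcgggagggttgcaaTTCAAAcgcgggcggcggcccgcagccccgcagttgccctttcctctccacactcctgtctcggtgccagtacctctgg
Top2a and Ube2c each held 6 CCAAT matches, and Top2a held 4 CHR matches. A pair of the Ube2c boxes, on opposite strands, shares 2 bases. In Cdc20 the CHR match begins at position -18 from the start, between CCAAT boxes that begin at -53 and -8. In Aurka it lies downstream of the RefSeq start, at position 33, while the GENCODE start of the gene, at 172370535, falls within the match. A match is a stretch of letters and does not show binding. The 10 genes were listed as mitotic genes, so many matches among them are no result of these libraries. A link between the matches and the difference between the groups was not tested.

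The 2 transcription factors, Foxm1 and Mybl2, had fold changes among the 3 smallest of the set, with Hmmr. Foxm1 (ENSMUSG00000001517.14, chromosome 6, 128362967 to 128376146, GRCm38 as for all positions) encodes a forkhead activator of G2 and mitosis genes. Foxm1 was at 45.6, 48.5, 40.5 and 48.8 CPM in conventionalized A to D, against 20.9, 28.4, 18.7 and 23.1 CPM in germ-free A to D (a log2 fold change of 1.01 with SE 0.26, limma adjusted p = 0.0393). The groups did not overlap, and the ranges within them were narrow: the highest library was 1.21 times the lowest in conventionalized and 1.52 times in germ-free animals. Mybl2 (ENSMUSG00000017861.11, chromosome 2, 163054687 to 163084688) encodes B-Myb, the Myb family partner of the MuvB complex. Mybl2 was at 63.6, 73.9, 51.4 and 57.5 CPM in conventionalized A to D, against 39.8, 49.2, 21.9 and 33.9 CPM in germ-free A to D (a log2 fold change of 0.80 with SE 0.29, limma adjusted p = 0.121). Mybl2 did not overlap between the groups, but its lowest conventionalized library, of pair C, was only just above germ-free B. It was the 1 member that missed the threshold with the littermate block (limma adjusted p = 0.0554), and it missed it in all 19 alternatives run. Foxm1 had an adjusted p of 0.0441 without germ-free B and of 0.052 to 0.146 without any 1 of the other 7 libraries.

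Mki67 and Top2a act on the chromosomes. Mki67 (ENSMUSG00000031004.8, chromosome 7, 135689784 to 135716361) encodes Ki-67, the protein that coats mitotic chromosomes and is the common marker of cycling cells. Mki67 was at 53.4, 145, 97.3 and 88.8 CPM in conventionalized A to D, against 23.8, 39.7, 21.8 and 40.0 CPM in germ-free A to D (a log2 fold change of 1.57 with SE 0.34, limma adjusted p = 0.0192, fold 2.96). Conventionalized A was the lowest of its group and still above the highest germ-free library. Among the 10 genes, Mki67 was the only one whose conventionalized libraries spread more widely (2.71-fold from lowest to highest) than its germ-free libraries (1.83-fold). Top2a (ENSMUSG00000020914.17, chromosome 11, 98992943 to 99024189) encodes the topoisomerase that untangles sister chromatids. Top2a was at 127, 198, 143 and 207 CPM in conventionalized A to D, against 51.4, 90.9, 24.4 and 100.1 CPM in germ-free A to D (a log2 fold change of 1.50 with SE 0.41, limma adjusted p = 0.0513; 0.012 with the littermate block). The groups did not overlap, and germ-free C was at less than any other. Mki67 passed without any 1 library except conventionalized B (0.0757), conventionalized C (0.0714) and germ-free A (0.066). Top2a passed without germ-free B (0.027), C (0.017) or D (0.043).

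Aurka and its activator Tpx2 start spindle assembly. Aurka (ENSMUSG00000027496.15, chromosome 2, 172356190 to 172370535) encodes Aurora A, the kinase of centrosomes and spindle poles. Aurka was at 107, 82.2, 88.8 and 127 CPM in conventionalized A to D, against 28.5, 55.4, 7.32 and 50.9 CPM in germ-free A to D (a log2 fold change of 1.82 with SE 0.50, limma adjusted p = 0.0556; 0.019 with the block). The highest germ-free level, in pair B, was below the lowest conventionalized level, also in pair B. Tpx2 (ENSMUSG00000027469.16, chromosome 2, 152847964 to 152895321) encodes the spindle protein that binds and switches on Aurora A. Tpx2 was at 47.6, 78.4, 56.1 and 82.8 CPM in conventionalized A to D, against 19.1, 50.3, 19.2 and 26.5 CPM in germ-free A to D (a log2 fold change of 1.27 with SE 0.34, limma adjusted p = 0.0498). Here the groups overlapped by 1 library: germ-free B was above conventionalized A, while each conventionalized animal was above its own littermate. Tpx2 was close to the threshold in the test over all libraries. Without germ-free B or C it passed (0.0123 and 0.017), and without any 1 of the other 6 it had an adjusted p of 0.0668 to 0.166. Aurka passed without the same germ-free libraries, of pair B (0.0254) or pair C (0.00576).

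Kif11 and Hmmr encode the motor and a microtubule-binding protein of the spindle. Kif11 (ENSMUSG00000012443.3, chromosome 19, 37376403 to 37421859) encodes the kinesin Eg5, which pushes the spindle poles apart. Kif11 was at 54.0, 76.6, 50.5 and 57.5 CPM in conventionalized A to D, against 14.2, 30.7, 9.7 and 43.8 CPM in germ-free A to D (a log2 fold change of 1.48 with SE 0.41, limma adjusted p = 0.0556; 0.0196 with the block). Germ-free D came close to the conventionalized range, and germ-free A and C were far below it. Hmmr (ENSMUSG00000020330.16, chromosome 11, 40701395 to 40733422) encodes RHAMM, a receptor for hyaluronan that also binds microtubules and helps place Tpx2 on the spindle. Hmmr was at 33.9, 42.7, 41.6 and 32.7 CPM in conventionalized A to D, against 16.4, 24.8, 15.3 and 22.3 CPM in germ-free A to D (a log2 fold change of 0.94 with SE 0.28, limma adjusted p = 0.0691; 0.047 with the block). The groups did not overlap for Hmmr, although the test over all libraries did not pass. Kif11 passed without germ-free B (0.0324), C (0.0191) or D (0.0214), and Hmmr in none of the fits without 1 library (lowest adjusted p 0.0599).

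Cdc20 and Ube2c serve the anaphase-promoting complex, the ubiquitin ligase that ends mitosis. Cdc20 (ENSMUSG00000006398.15, chromosome 4, 118432901 to 118437352) encodes its mitotic activator. Cdc20 was at 285, 258, 212 and 309.9 CPM in conventionalized A to D, against 98.5, 138, 28.3 and 106 CPM in germ-free A to D (a log2 fold change of 1.71 with SE 0.43, limma adjusted p = 0.0348, fold 3.28). Germ-free C was far below the other germ-free libraries, and the groups did not overlap. Ube2c (ENSMUSG00000001403.13, chromosome 2, 164769898 to 164778822) encodes the ubiquitin-conjugating enzyme that works with the complex. Ube2c was at 240.2, 199, 254 and 340.0 CPM in conventionalized A to D, against 88.4, 184, 17.4 and 119 CPM in germ-free A to D (a log2 fold change of 1.72 with SE 0.56, limma adjusted p = 0.0919; 0.0377 with the block). In pair B the littermates were nearly level, and in pair C they were far apart. Cdc20 passed without germ-free B (0.0163) or C (0.00532) and had an adjusted p of 0.0573 to 0.101 without any 1 of the other 6. Ube2c passed without the same germ-free libraries, of pair B (0.0324) or C (0.0302). Exons of Ube2c share 592 bases with Tnnc2 and those of Cdc20 53 bases with Elovl1, each on the opposite strand. The library kit does not keep strand. Tnnc2 reached at most 0.275 CPM, whereas Elovl1 was at 117 to 240.4 CPM, so a small exchange of reads between Cdc20 and Elovl1 cannot be told apart from their own levels.

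Which library was left out changed how many of the 10 genes passed. Without germ-free B, 8 rose (4.19% of all tested genes rose), without germ-free C 7 (2.53%) and without germ-free D 3 (0.787%). Without germ-free A, 0 rose (0.314%), and likewise 0 without conventionalized B (0.142%) or C (0.233%). Without conventionalized A, 1 rose (0.32%), and 1 without conventionalized D (0.14%). Leaving out germ-free C and conventionalized A together gave 7 (2.43%), and leaving out both animals of pair B 7 (4.15%). Under other settings, 8 rose by voom (4.97%) and 8 with upper-quartile scaling (2.62%), against 1 with library size only (1.16%), 2 with no filter on low values (0.117%), 2 with a filter at 1 CPM (0.567%) and 7 with a pseudocount of 2 (1.59%). In each of these fits all 10 genes were higher in conventionalized animals.

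**Figure D2:**
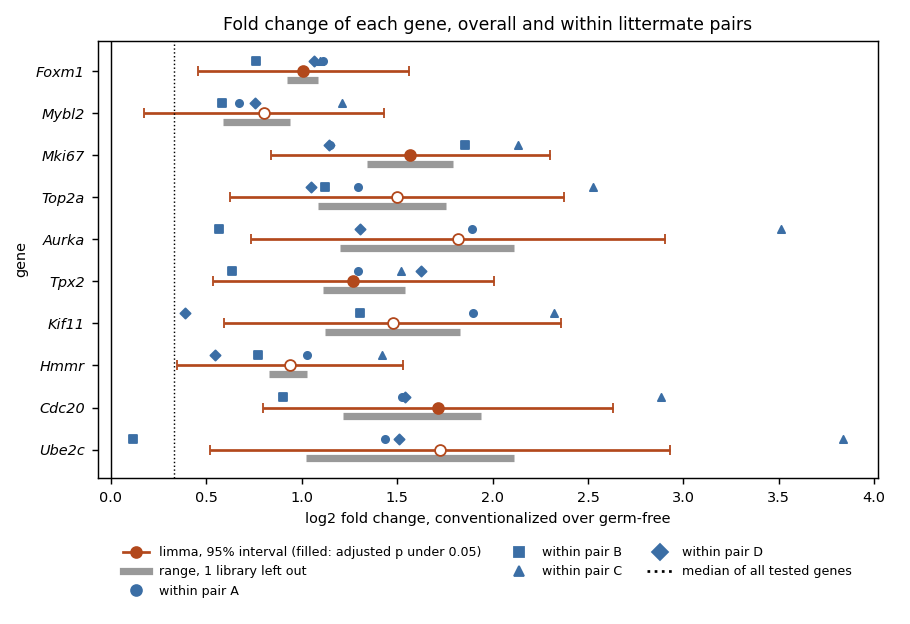
Log2 fold change of conventionalized over germ-free for each gene: circle and whiskers are the limma estimate with its 95% interval (filled where the adjusted p is under 0.05), grey bars the range with 1 library left out, blue markers the difference within each littermate pair. All blue markers lie above 0, from 0.12 for Ube2c in pair B to 3.83 for Ube2c in pair C.

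The size of the difference varied between pairs. Each pair holds a single animal per group, so differences between litters cannot be told apart from those between animals or libraries. In pair C the mean log2 deviation of the 10 genes from the group mean was -0.99 in the germ-free and -0.13 in the conventionalized library. In pair B it was 0.67 in the germ-free and 0.15 in the conventionalized library. Over the 10 genes the median log2 difference within a pair was 1.30 in pair A, 0.77 in pair B, 2.23 in pair C and 1.10 in pair D, against 0.32, 0.06, 0.36 and 0.50 over all tested genes. Pair B gave the smallest difference for 6 of the 10 genes: Foxm1, Mybl2, Aurka, Tpx2, Cdc20 and Ube2c. Its germ-free animal had the highest germ-free level for 7 of the 10 genes, and its conventionalized animal the highest level of all libraries for 4 (Mki67, Mybl2, Kif11 and Hmmr). Ube2c varied most between pairs, with differences of 1.44, 0.12, 3.83 and 1.51 in pairs A to D, and Foxm1 least, with 1.11, 0.76, 1.10 and 1.07. In germ-free animals the highest library exceeded the lowest by 1.52-fold (Foxm1) to 10.6-fold (Ube2c), and in conventionalized animals by 1.21-fold (Foxm1) to 2.71-fold (Mki67). The spread was wider in the germ-free group for 9 of the 10 genes, and for 8 without germ-free C, a count that sets fewer germ-free libraries against all conventionalized ones. The share of all tested genes with a wider germ-free spread is not given here. Germ-free libraries were also each less like their group (median correlation 0.792 to 0.887) than conventionalized libraries (0.918 to 0.943). Whether a wider spread is particular to the 10 genes was not tested.

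**Figure D3:**
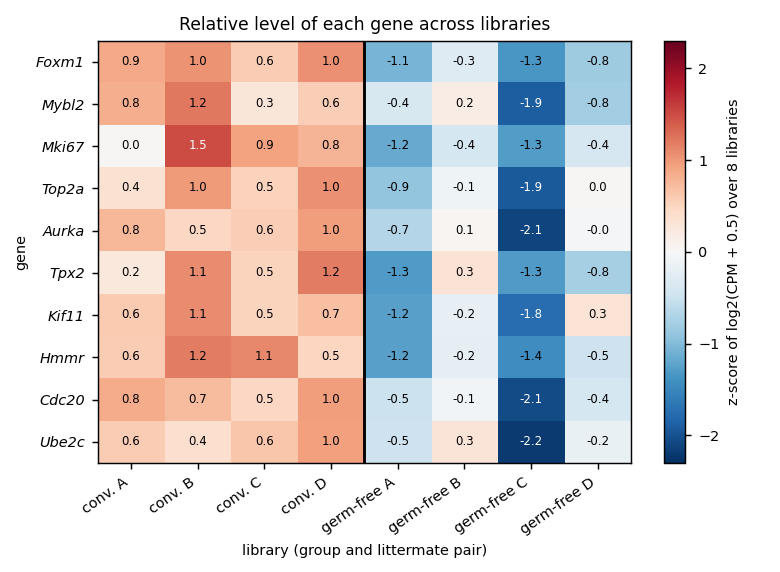
Level of each gene relative to its own mean, as a z-score of log2(CPM + 0.5) over the 8 libraries, with conventionalized libraries left of the black line and germ-free libraries right of it. The conventionalized columns are all at or above 0, and the germ-free C column is the lowest, with a mean z-score of -1.73, against -0.89 for pair A, -0.04 for pair B and -0.35 for pair D.

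The 10 genes followed each other closely from library to library. Over log2 levels, Pearson's r for the 45 pairs of genes ran from 0.750 (Mki67 with Ube2c) to 0.988 (Aurka with Ube2c), with a median of 0.898, over 8 libraries that share the group difference. After the mean of each group was taken away, r ran from 0.390 (Mki67 with Cdc20) to 0.982 (Aurka with Ube2c), with a median of 0.735. Aurka, Cdc20 and Ube2c formed the tightest trio, with r of 0.970 to 0.988 before and 0.967 to 0.982 after that step, and these 3 share the low value of germ-free C. The 4 lowest correlations all involved Mki67, with Ube2c, Aurka, Mybl2 and Cdc20. Depth and composition of a library are also shared by all 10 genes. Over the 10 genes, germ-free C lay furthest from its group mean, with a mean log2 deviation of -0.99. Neither r without that library nor r between other genes is given here. Outside the lists used here, the 5 tested genes closest to the mean profile of the 10 over the 8 libraries were Ccnf (r = 0.991), Lrrc31 (0.986), Ttk (0.986), Cep55 (0.986) and Ankle1 (0.986). Ccnf encodes cyclin F, Ttk the spindle checkpoint kinase Mps1 and Cep55 a protein of the final cut between daughter cells. Ccnf averaged 74.2 ± 8.4 CPM in conventionalized against 22.2 ± 10.1 CPM in germ-free animals (SD, n = 4 per group), a difference that follows from its choice by likeness to genes that differ between the groups.

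Per length of transcript, the genes of mitotic exit were the most abundant. In conventionalized libraries, mean CPM per kilobase of the longest coding transcript was 148 for Cdc20, 118 for Ube2c, 53.1 for Aurka and 32.3 for Top2a. Next came Mybl2 (16.9), Tpx2 (15.2), Kif11 (12.4), Foxm1 (9.86), Hmmr (9.69) and Mki67 (9.54), whose neighbours in the order overlapped in range. Cdc20 and Ube2c also overlapped, whereas the ranges of Ube2c and Aurka, Aurka and Top2a, and Top2a and Mybl2 did not. In germ-free libraries the order was the same apart from Hmmr and Foxm1, from 51.7 for Cdc20 and 46.7 for Ube2c to 3.11 for Mki67. There the ranges of all neighbours overlapped except those of Mki67 and Foxm1.

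Set against the stem cell markers, the 10 genes did not separate the groups. Their summed CPM was 21.2%, 13.4%, 15.8% and 13.4% of that of the 8 stem cell markers in conventionalized A to D, and 11.8%, 13.0%, 20.8% and 15.5% in germ-free A to D. The ranges overlapped almost fully. Olfm4 made up 65.5% of the stem cell sum, and Sox9, the gene of the sort, is among the 8 markers. Conventionalized A, with the highest ratio, also had by far the highest goblet marker sum. The mean log2 level of the 10 genes minus that of the stem cell markers also overlapped. It was -2.26 to -1.47 in conventionalized and -2.47 to -1.77 in germ-free libraries. Whether the 10 genes follow stem cell content was not tested. Germ-free C, lowest for 9 of the 10 genes, was also lowest for the stem cell markers, with 883 CPM in sum, and its ratio was the highest of the germ-free group.

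The other mitotic genes, 98 in 6 lists by role that hold none of the 10, gave 17 higher and 0 lower among 96 tested, with a median log2 fold change of 1.04, where 1.15% of all tested genes rose. With the littermate block 47 of the 96 rose, where 8.21% of all tested genes did. Without germ-free C the median was 0.75 and 27 rose (2.53% of all), and without conventionalized C 3 rose (0.233% of all). In the mitotic entry kinases, 5 of 16 rose (Cdk1, Ccnb1, Ccnb2, Plk1 and Nek2) and 0 fell, with a median of 1.36. Cdk1, the kinase that drives entry into mitosis, averaged 169 ± 23.7 CPM in conventionalized against 55.6 ± 39.8 CPM in germ-free animals (a log2 fold change of 1.88 with SE 0.45, limma adjusted p = 0.0293). Its partner cyclin B1, Ccnb1, averaged 177 ± 19.9 CPM in conventionalized against 64.7 ± 36.4 CPM in germ-free animals (a log2 fold change of 1.69 with SE 0.44, limma adjusted p = 0.0428), and the kinase Plk1 averaged 156 ± 26.5 CPM in conventionalized against 54.4 ± 31.7 CPM in germ-free animals (a log2 fold change of 1.74 with SE 0.44, limma adjusted p = 0.0357). Nek2, a kinase that parts the centrosomes, averaged 86.5 ± 16.3 CPM in conventionalized against 25.1 ± 7.62 CPM in germ-free animals (a log2 fold change of 1.79 with SE 0.29, limma adjusted p = 0.00595) and passed without any 1 library. Cdk1 and Ccnb1 passed only without germ-free B or C, and Plk1 without germ-free B, C or D, among the fits that left out 1 library.

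Among the spindle motors, 5 of 11 rose (Kif18b, Kif22, Kif23, Kif2c and Kif4), with a median of 1.45, and 10 rose with the block. Of all tested genes, 1.15% rose, and 8.21% with the block. Kif23, the motor of the central spindle, averaged 72.7 ± 10.3 CPM in conventionalized against 18.8 ± 9.7 CPM in germ-free animals (a log2 fold change of 2.11 with SE 0.41, limma adjusted p = 0.0106), and Kif18b averaged 52.9 ± 8.04 CPM in conventionalized against 15.1 ± 7.34 CPM in germ-free animals (a log2 fold change of 1.87 with SE 0.33, limma adjusted p = 0.00756). Both passed without any 1 library. Kif2c, a kinesin that takes microtubules apart, averaged 53.6 ± 7.54 CPM in conventionalized against 21.4 ± 5.96 CPM in germ-free animals (a log2 fold change of 1.34 with SE 0.29, limma adjusted p = 0.0199). Of the 25 spindle assembly and centrosome genes 5 rose (Cdk5rap2, Ckap2, Ckap2l, Haus5 and Tacc3) and 14 with the block, with a median of 1.15. Tacc3, which steadies spindle microtubules, averaged 152 ± 29.4 CPM in conventionalized against 52.1 ± 28.5 CPM in germ-free animals (a log2 fold change of 1.72 with SE 0.40, limma adjusted p = 0.0257). Ckap2l averaged 54.6 ± 7.78 CPM in conventionalized against 16.8 ± 8.88 CPM in germ-free animals (a log2 fold change of 1.83 with SE 0.38, limma adjusted p = 0.0156) and Ckap2 51.0 ± 6.76 CPM in conventionalized against 16.8 ± 7.97 CPM in germ-free animals (a log2 fold change of 1.70 with SE 0.36, limma adjusted p = 0.0165). Kif2c missed the threshold without conventionalized B, C or D or germ-free A (limma adjusted p up to 0.0739). Tacc3 missed the threshold without conventionalized A, B, C or D or germ-free A (limma adjusted p up to 0.0775). Ckap2l missed the threshold without conventionalized B or C (limma adjusted p up to 0.059). Ckap2 missed the threshold without conventionalized C or D (limma adjusted p up to 0.0665).

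**Figure D4:**
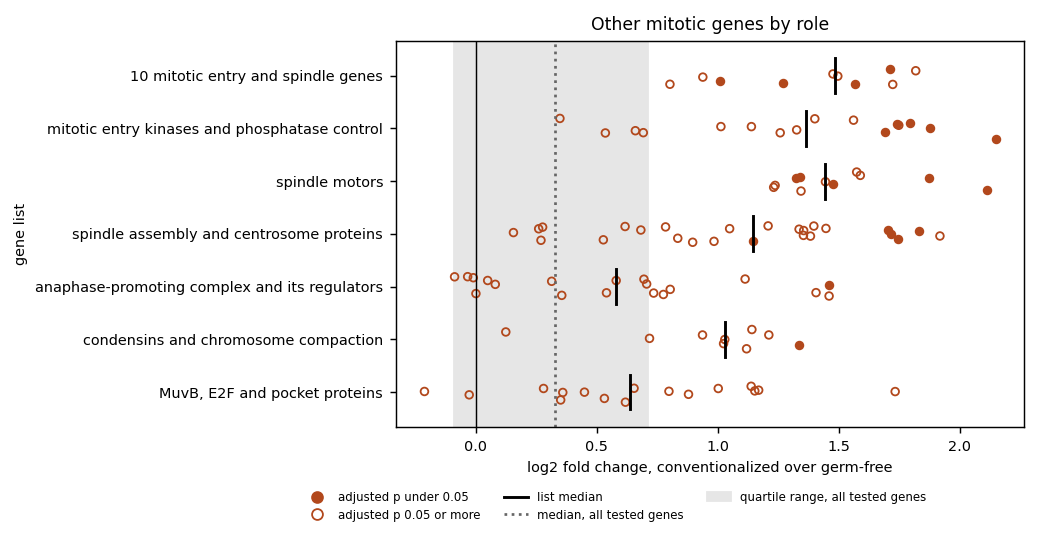
Log2 fold change of conventionalized over germ-free for the 10 genes (top row) and for other mitotic genes by role; each point is a gene, filled where the limma adjusted p is under 0.05, and the black bar is the list median. The dotted line is the median of all tested genes, 0.33, and every list median lies to its right, from 0.58 for the anaphase-promoting complex to 1.49 for the 10 genes; the grey band shows the spread of single genes, from -0.09 to 0.71 (quartiles).

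The 3 remaining lists also had medians above the 0.33 of all tested genes. In the anaphase-promoting complex and its regulators 1 of 19 rose, Fbxo5, and 0 fell, with a median of 0.58, where 1.15% of all tested genes rose. With the block 4 rose, where 8.21% of all tested genes did. Of the 19, 16 were positive, against 70.4% of all tested genes. Several subunits were near 0, among them Cdc23 (-0.09), Anapc4 (-0.03) and Anapc2 (0.08). The 3 genes described next had the lowest p in the list. Fbxo5, the inhibitor Emi1, averaged 38.0 ± 2.55 CPM in conventionalized against 14.9 ± 6.48 CPM in germ-free animals (a log2 fold change of 1.46 with SE 0.37, limma adjusted p = 0.0369). Ube2s, which extends ubiquitin chains after Ube2c has started them, averaged 177 ± 41.6 CPM in conventionalized against 87.4 ± 37.6 CPM in germ-free animals (a log2 fold change of 1.11 with SE 0.37, limma adjusted p = 0.0955; 0.0455 with the block). The subunit Anapc15 averaged 43.4 ± 7.04 CPM in conventionalized against 17.5 ± 9.03 CPM in germ-free animals (a log2 fold change of 1.46 with SE 0.41, limma adjusted p = 0.0556; 0.0284 with the block). Of 9 condensin and compaction genes 1 rose, the condensin subunit Ncaph (77.3 ± 13.5 CPM in conventionalized against 31.1 ± 9.95 CPM in germ-free animals; a log2 fold change of 1.34 with SE 0.29, limma adjusted p = 0.0201), and 5 rose with the block, with a median of 1.03. Fbxo5 missed the threshold without conventionalized A, B, C or D or germ-free A (limma adjusted p up to 0.111). Ncaph missed the threshold without conventionalized B, C or D or germ-free A (limma adjusted p up to 0.0745). Smc4 had an adjusted p of 0.070 (0.0213 with the block) and Ncaph2 of 0.0914 (0.0405 with the block). Of the 16 tested MuvB, E2F and pocket protein genes, limma called 0, while 7 were higher at an unadjusted p under 0.05, as were 19.8% of all tested genes. Voom called 1 of the 16 higher (4.97% of all tested genes) and the block 3 (8.21% of all), and the list's median was 0.64, with 14 of 16 positive against 70.4% of all tested genes. The lowest p in that list belonged to E2f5 (a log2 fold change of 1.73 with SE 0.54, limma adjusted p = 0.0807), the pocket protein gene Rbl1 (a log2 fold change of 1.15 with SE 0.38, limma adjusted p = 0.0969) and E2f7 (a log2 fold change of 1.17 with SE 0.45, limma adjusted p = 0.136). Those lists were not compared with each other by a test.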

How the data were processed

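The deposited table gives a normalized signal per gene and library, not raw counts. From the values, it was taken to be estimated counts divided by a library size factor: within a tolerance of 0.02, 99.8% of values under 200 steps in 27909 genes with 1 annotated transcript were whole multiples of a step per library, against 26.6% in 20149 genes with several. Whether the values of those genes are fractional estimates or carry a further factor was not tested. Whole reads could not be recovered, so no count test was run. Per the submitters' processing notes, the tools were STAR 2.4.2a, Trimmomatic 0.36, DESeq2 1.12.4 and R 3.3.1, with mm10; the series text adds Salmon. Per the labels' protocols, the SMARTer Ultra Low Input and Nextera XT kits were used on 10 ng of RNA, with single-end reads; lane membership was not used here. Symbols and positions are from GENCODE M21 (GRCm38).

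Values divided by each library's step were turned into CPM by TMM (trimming 30% and 5%, own code in R 4.3.3). limma 3.58.1 tested log2(CPM + 0.5) of each gene that reached 10 CPM in 4 or more libraries (trend, robust, condition as the only term; two-sided, Benjamini-Hochberg over all genes). The pseudocount understates the change of low genes. SE is the standard error of the log2 fold change and ± is SD with n = 4 animals per group. Littermate pairs come from the labels. Deviations from group means correlated within pairs A to D by 0.14, -0.16, 0.31 and -0.01. For the 10 genes alone, the mean log2 deviation had the same sign in both littermates of each pair. It was -0.16, 0.15, -0.13 and 0.14 in conventionalized A to D, and -0.11, 0.67, -0.99 and 0.43 in germ-free A to D. Alternatives covered scaling, filter, pseudocount, model, the littermate block and libraries left out. The procedure was tested on simulated data. The 10 genes, the lists and the tests were chosen with earlier results of these data known. Named besides the 10 were Cdk1, Ccnb1, Plk1, the 3 genes with the lowest p in each role list, the 5 genes most like the mean profile, Sox9, and the called members of each list. PCR copies were not told apart from separate molecules.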

Additional observations from a re-analysis of the deposited data

Results flagged for a closer look

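Of 86 groups of 4 libraries examined for 1 value far from the rest, 2 were picked out, and chance alone gives about 1 in 20. The kinesin gene Kif2c was at 42.4 CPM in the conventionalized library of pair A, below the other conventionalized libraries (56.5 to 58.5 CPM) and above the germ-free mean of 21.4 CPM. The goblet cell markers summed to 50859 CPM in that same library, against 1570 to 6154 CPM in the other conventionalized libraries. None of the 10 mitotic entry and spindle genes had such a value in either group.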

How the results depend on the processing

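All 10 genes kept a positive log2 fold change in all 19 alternatives (0.57 to 2.28 over 190 values, 0 reversed), while the number past the threshold, 4 in the test as reported, moved with most of them. Of the 190 values, 123 stayed on their side of the threshold, 33 lost the call and 34 gained it. The members that rose numbered 1 with library size only, 2 with no filter on low values and 2 with a filter at 1 CPM. They numbered 8 with upper-quartile scaling, 7 with a pseudocount of 2, 8 by voom and 9 with the littermate pair as a replicate block, and 7 without germ-free C and conventionalized A together. They numbered 7 without littermate pair B, an alternative chosen after seeing the data. Over all genes, 116 rose as reported, 263 with upper-quartile scaling, 45 with no filter, 500 by voom, 825 with the block, 234 without the 2 libraries above and 420 without pair B. Other mitotic genes that rose numbered 17 as reported, 9 with no filter, 38 by voom, 47 with the block and 28 without pair B. With 1 library left out, members that rose ran from 0 to 8, all genes that rose from 14 to 412 and fell from 151 to 368 (377 as reported), and other mitotic genes from 3 to 31. Members numbered 0 without conventionalized B, conventionalized C or germ-free A, 1 without conventionalized A or D, 8 without germ-free B, 7 without germ-free C and 3 without germ-free D. No member or other mitotic gene fell in any alternative. Among the members, the block added calls for Top2a, Aurka, Kif11, Hmmr and Ube2c and removed none. With library size only, the median over all tested genes was 0.09 in place of 0.33, and the members' median lay 1.16 above it with either scaling. With no filter and with the filter at 1 CPM 38312 and 18338 genes were tested, so the adjustment is over more genes. The cause of the other shifts was not tested.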
